A study of Rattus norvegicus with 12 samples.

Results

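Collagen and laminin chains were described in the rat uterus across 4 combinations of diet and estrogen. The members were all genes whose symbol names a collagen α chain (Col, number, a, number) or a laminin α, β or γ chain (Lama, Lamb or Lamc with a number), whatever their values. Of 16493 genes in the files, 31 met this rule, 24 for collagens and 7 for laminins. By the class of the protein, 9 were fibrillar collagens, 10 were basement membrane chains (3 of type IV collagen and the 7 laminins) and 12 were other collagens. Another 26 rat chains of these families, among them Col4a2, Col6a1, Lama2, Lama3, Lama4 and Lamb1, are not analysed here.

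Every animal was an ovariectomized Sprague-Dawley rat on an AIN-93G diet, with corn oil as its fat. CAS rats received casein and SPI rats soy protein isolate as protein, and both had vehicle pumps. CAS-E2 and SPI-E2 rats had the same diets and pumps under the skin that released estradiol (E2, the estrogen of the ovary) at 5 μg/kg/d. The methods place the start of the diets at PND30 (postnatal day), ovariectomy at PND50 and collection at PND65, although other passages of the study differ by 1 day in age and give a shorter feeding period. Each group had 3 libraries, and each library was 1 pool of RNA from 2 whole uteri, so 6 uteri stand behind a group and p-values measure the spread between pools. The libraries of a group were combined on the flow cell, so lane and group cannot be told apart.

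Collagens are trimers of α chains wound into a triple helix. The fibrillar types form the banded fibrils of connective tissue, type IV forms the network of basement membranes, and the remaining types coat fibrils, form beaded filaments or span the cell membrane. Laminins are cross-shaped trimers of an α, a β and a γ chain that organize the basement membrane under epithelium and around muscle and vessels. In the uterus, fibrillar collagen is made mainly by stromal fibroblasts, and the matrix is remodelled with each estrogen cycle.

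Laminin chains responded to E2 in different directions, and their genes are placed first here. In the rn4 build of the files, Lamc1 (chromosome 13, 68241453 to 68369419) lies on the minus strand with 28 exons. Lamc3 (chromosome 3, 10989308 to 11050417, plus strand) has 28 exons, and Lamb3 (chromosome 13, 109148815 to 109190320, plus strand) has 23. Col17a1, the transmembrane collagen of hemidesmosomes, lies on the minus strand of chromosome 1 from 253012167 to 253059385 with 53 exons. RefSeq promoter windows of the GRCr8 build, another build than that of the expression files, were found for 24 of the 31 members. The 250 bases before the start of Lamb3 (chr13:107362303-107362552, plus strand), Lamc1 (chr13:68051987-68052236, minus strand), Lamc3 (chr3:35562739-35562988, plus strand) and Col17a1 (chr1:256518858-256519107, minus strand) are shown because these genes gave a rise, no call, a fall and a fall in the comparisons with E2. Each is written 5′ to 3′ along the gene, and capitals mark GC boxes (GGGCGG on either strand) and TATA boxes (TATAAA on either strand).
Lamb3: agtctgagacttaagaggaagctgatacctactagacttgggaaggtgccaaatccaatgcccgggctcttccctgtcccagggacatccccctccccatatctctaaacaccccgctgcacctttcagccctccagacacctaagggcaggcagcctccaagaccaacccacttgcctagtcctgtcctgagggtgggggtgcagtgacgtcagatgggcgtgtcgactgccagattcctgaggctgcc
Lamc1: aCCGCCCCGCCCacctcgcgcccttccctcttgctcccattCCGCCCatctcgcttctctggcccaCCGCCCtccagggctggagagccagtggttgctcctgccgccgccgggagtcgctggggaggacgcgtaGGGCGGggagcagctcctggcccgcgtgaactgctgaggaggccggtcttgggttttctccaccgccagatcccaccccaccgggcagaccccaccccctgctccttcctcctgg
Lamc3: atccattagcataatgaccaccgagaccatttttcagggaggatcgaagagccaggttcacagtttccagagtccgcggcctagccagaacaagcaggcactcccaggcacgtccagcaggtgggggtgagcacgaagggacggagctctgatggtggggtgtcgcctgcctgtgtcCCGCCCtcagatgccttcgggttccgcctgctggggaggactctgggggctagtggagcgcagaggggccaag
Col17a1: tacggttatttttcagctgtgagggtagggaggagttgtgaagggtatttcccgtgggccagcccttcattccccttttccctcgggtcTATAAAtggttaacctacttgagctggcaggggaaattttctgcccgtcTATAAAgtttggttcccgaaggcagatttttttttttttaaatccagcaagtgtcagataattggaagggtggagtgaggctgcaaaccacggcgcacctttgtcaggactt
The Lamc1 window held 5 GC boxes, the Lamc3 window 1, and the Lamb3 window no GC or TATA box by these letters. The Col17a1 window held 2 TATA boxes, starting 161 and 112 bases before the start site. A GC box was present in 32.4% and a TATA box in 13.1% of 27457 rat promoter windows of the same length. The full estrogen response element (AGGTCA, any 3 bases, then TGACC, on either strand) was found in none of the 24 member windows and in 0.0182% of all windows. Its single arm (AGGTCA, either strand, which overlaps the full element) was found in the windows of Col4a4 and Col7a1 and in 13.7% of all windows. These matches describe letters in the windows and not binding.

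Levels are given as FPKM, the authors' Cufflinks estimate of fragments scaled to the length of the transcript and to the mapped reads of the library, so that genes can be set beside each other. The files implied 6353210 to 9862180 mapped reads per library. A gene was tested where 3 or more libraries had an FPKM of 1 or above, which 10279 genes and 21 of the 31 members passed. Changes are differences of log2(FPKM + 1) from limma, a scale that understates changes of low genes, and "called" means a Benjamini-Hochberg adjusted p under 0.05 over all tested genes together with at least a 2-fold change. Libraries are named by group and number. The tissue is uterus by the study's account, and no marker of uterus alone was examined. Smooth muscle and epithelium were present in all 12 libraries, with 5 smooth muscle genes summing to 1995 FPKM or more and none of the epithelial markers at 0. Albumin, a liver protein, stood at 1119 FPKM in SPI 1 and at 6.23 to 173 FPKM in the other 11 libraries, and results with and without that library are given where it mattered.

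The chains differed widely in level. Col6a2, a chain of the beaded filaments around cells, ranged from 146 FPKM (SPI 2) to 522 FPKM (CAS-E2 1). Col1a1 and Col1a2, which make type I collagen, ranged from 61.1 to 217 FPKM and from 45.3 to 167 FPKM. Col3a1, the chain of type III collagen, ranged from 39.8 to 194 FPKM. Among the basement membrane chains, Col4a1 ranged from 19.6 to 41.9 FPKM and Lamc1 from 10.5 to 20.5 FPKM. A library's value is the sum of many reads for the highest chains and of few for the lowest: coverage gave about 2446 to 10060 reads for Col1a1 and about 0 to 36 for Col23a1.

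The 10 members that did not pass the filter were 2 fibrillar, 4 basement membrane and 4 other chains. Lamb2 and Col9a1 were listed at 0 in all 12 libraries. The Lamb2 transcript lies on a chromosome 16 sequence that rn4 leaves unplaced, so its 0 is not read as absence. Col2a1, the cartilage fibrillar chain, was above 0 in SPI 3 at 0.0119 FPKM and listed at 0 elsewhere. Col4a3 and Col4a4, which are transcribed from a shared promoter region in opposite directions, reached at most 0.589 and 1.11 FPKM. Lama1 reached at most 0.271, Col11a2 0.438, Col13a1 0.550, Col8a1 0.988 and Col9a2 0.244 FPKM.

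**Figure D1:**
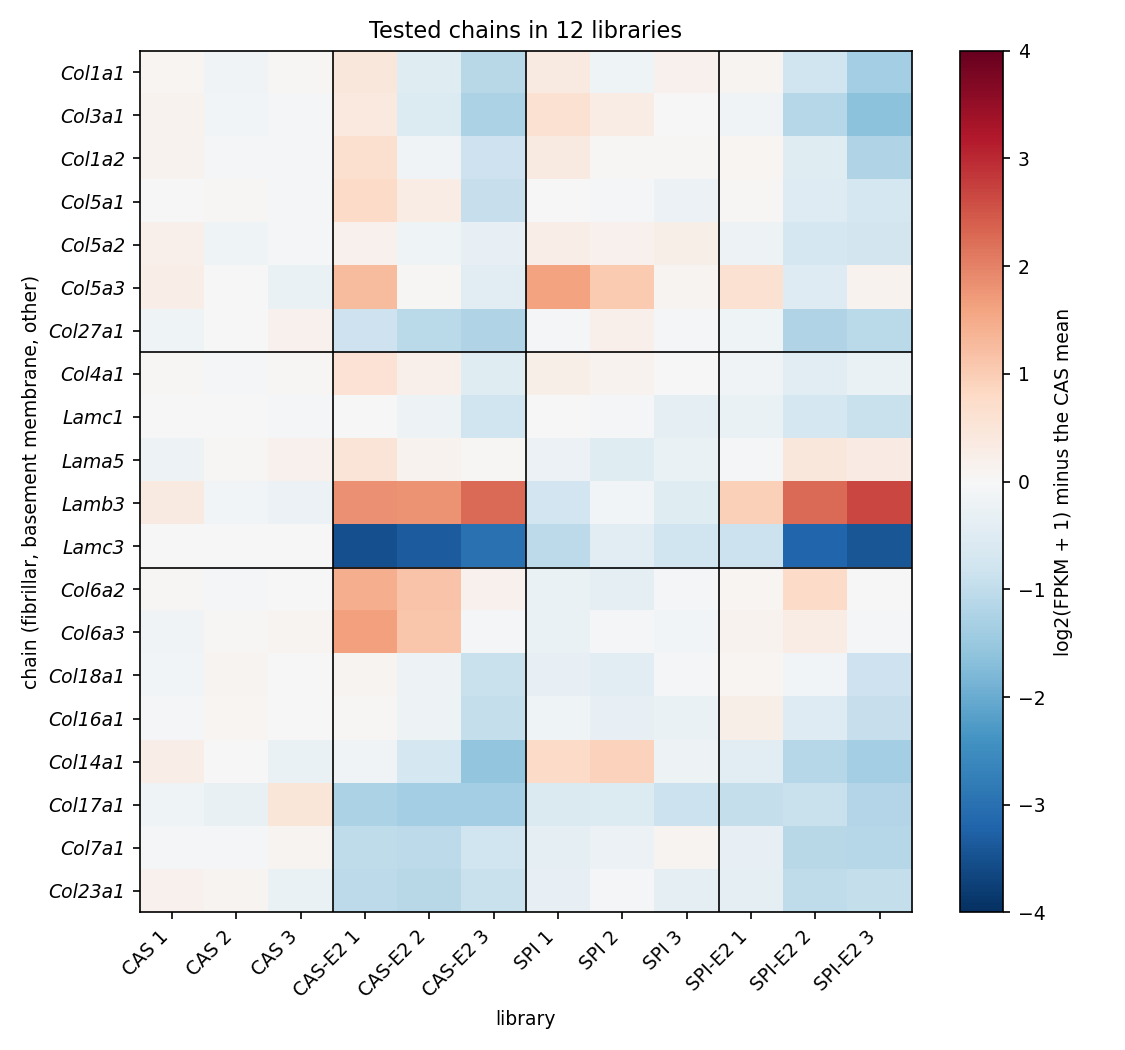
Heat map of tested chains (rows, by class) in the 12 libraries (columns, by group). Colour shows each library's log2(FPKM + 1) minus the mean of that chain in CAS. Lamb3 is high in the libraries with E2, Lamc3 is low in 5 of those 6, and SPI-E2 1 stands between the groups.

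Under E2 in casein-fed rats, the laminin chain Lamb3 rose, and the laminin chain Lamc3 and a few minor collagens fell, while the major fibrillar collagens passed no test. Of 21 members tested, CAS-E2 had 2 called higher and 4 called lower relative to CAS, where 14.4% of all tested genes were called, 7.99% higher and 6.37% lower. With the adjusted p under 0.05 as the one criterion, 4 members were higher and 5 lower, where 39.1% of all tested genes passed in either direction. As shares of the 21, the called members are 9.52% higher and 19.0% lower. Their median log2 difference was -0.32, beside -0.07 over all tested genes. By class, 1 of 7 fibrillar, 3 of 6 basement membrane and 2 of 8 other chains were called. The pools of the groups did not overlap for 3 members that were higher and 5 that were lower with E2, beside 23.9% and 31.2% of all tested genes.

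Lamb3 encodes the laminin β3 chain, which epithelial cells use in the laminin that anchors hemidesmosomes. It had 3.58, 2.33 and 2.03 FPKM in CAS 1 to 3, and in CAS-E2 1 to 3 it had 11.6, 11.6 and 16.4 FPKM. Every CAS-E2 pool was above every CAS pool, with a difference of 1.97 (SE 0.36, adjusted p = 0.00201 from limma).

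Lamc3 encodes the γ3 chain, a less common laminin subunit. Its level was 15.99, 15.7 and 16.2 FPKM in CAS and 0.481, 0.678 and 1.12 FPKM in CAS-E2. The CAS pools lay within 1 FPKM of each other and the CAS-E2 pools far below them. The difference was -3.28 (SE 0.51, adjusted p = 0.000844 from limma), a 9.73-fold fall on the log2(FPKM + 1) scale. Lamc1, the γ1 chain of most laminins, stood at 20.5, 20.5 and 19.4 FPKM in CAS and at 20.4, 17.4 and 11.2 FPKM in CAS-E2. These groups overlapped, with a difference of -0.32 (SE 0.22, adjusted p = 0.26 from limma).

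Neither Col4a1 nor Lama5 was called in casein-fed rats. Col4a1, the main type IV chain, stood at 28.5, 26.5 and 28.5 FPKM in CAS and at 41.9, 32.2 and 19.6 FPKM in CAS-E2, so that the CAS-E2 pools spread to both sides of CAS. Lama5, the α5 chain of epithelial and vascular laminins, stood at 7.08, 8.74 and 9.51 FPKM in CAS and at 12.5, 9.34 and 8.62 FPKM in CAS-E2. These groups also overlapped.

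Among the other collagens, Col17a1 encodes the transmembrane collagen of hemidesmosomes. Its level was 3.24, 2.91 and 5.66 FPKM in CAS and 0.974, 0.879 and 0.874 FPKM in CAS-E2. It was lower in all 3 CAS-E2 pools, by 1.33 on the log2 scale (difference -1.33, SE 0.19, adjusted p = 0.000637 from limma), and so moved opposite to Lamb3. Col23a1, another transmembrane collagen, stood at 1.44, 1.32 and 0.809 FPKM in CAS and at 0.0544 FPKM, 0 and 0.175 FPKM in CAS-E2. All CAS pools were above all CAS-E2 pools (difference -1.02, SE 0.20, adjusted p = 0.00308 from limma), at a level of few reads. Its FPKM reached 1 only in CAS 1, CAS 2 and SPI 2 (1.08 FPKM), all without E2. Col23a1 thus entered the test through groups where it was high, and leaving out any of these libraries removed it from the test. Col7a1, which forms the anchoring fibrils under epithelia, went from 1.67 to 2.04 FPKM in CAS to 0.366 to 0.625 FPKM in CAS-E2. Its difference of -0.94 (adjusted p = 0.00593 from limma) was under 2-fold on this scale, so it was not called. Like Col17a1, Col7a1 reached an FPKM of 1 in no CAS-E2 pool and passed the filter through the other groups. Col18a1, the source of endostatin, stood at 17.9, 21.2 and 19.3 FPKM in CAS and at 20.95, 16.7 and 9.97 FPKM in CAS-E2, with overlap. Col14a1 stood at 4.84, 3.88 and 3.04 FPKM in CAS and at 3.40, 1.97 and 0.627 FPKM in CAS-E2, which also overlapped (difference -0.81, adjusted p = 0.11 from limma).

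Type VI collagen passed the adjusted p but not the 2-fold cutoff. Col6a2 stood at 197, 180 and 194 FPKM in CAS and at 522, 420 and 214 FPKM in CAS-E2. Col6a3 stood at 18.0, 20.7 and 21.9 FPKM in CAS and at 64.7, 44.96 and 19.1 FPKM in CAS-E2, where CAS-E2 3 lay within the CAS pools. The differences were 0.92 (adjusted p = 0.0307 from limma) and 0.89 (adjusted p = 0.0463). Without CAS-E2 3 both were called, at 1.30 and 1.38, and the count of members called higher was 4 in place of 2. Without CAS-E2 1 neither passed the adjusted p, at 0.65 (adjusted p = 0.11 from limma) and 0.52 (adjusted p = 0.17). Whether type VI collagen passed thus depended on single pools in both directions. The 5 smooth muscle markers, none of them at 0, summed to 2659 to 2983 FPKM in CAS and to 3827, 4695 and 1995 FPKM in CAS-E2 1 to 3, so CAS-E2 3 was the lowest for them as well. The part of smooth muscle in the levels of type VI collagen was not tested. The ratio of Col6a2 to Col6a3 was 9.48 ± 1.25 in CAS and 9.54 ± 1.57 in CAS-E2 (SD, n = 3 each), which differed by less than its spread. The ratio of Col6a2 to Col1a1 was 1.16 to 1.24 in CAS and 2.40 to 3.68 in CAS-E2, without overlap.

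The fibrillar chains spread widely among the pools of casein-fed rats with E2. Col1a1 stood at 169, 145 and 166 FPKM in CAS and at 217, 114 and 74.0 FPKM in CAS-E2, with a difference of -0.38 (95% interval -1.24 to 0.48). Col1a2 stood at 117, 101 and 101 FPKM in CAS and at 167, 96.0 and 58.9 FPKM in CAS-E2. Col3a1 stood at 140, 117 and 122 FPKM in CAS and at 165, 86.4 and 51.5 FPKM in CAS-E2. In all of these, CAS-E2 1 was above and CAS-E2 3 below every CAS pool. CAS-E2 1 was the highest and CAS-E2 3 the lowest CAS-E2 pool in 7 of 7 tested fibrillar chains. Over all tested genes, CAS-E2 1 was the highest of its group in 32.6% and CAS-E2 3 the lowest in 48.9%. In the study's read summary, CAS-E2 3 had the lowest alignment rate of all libraries and CAS-E2 1 the highest of its group. CAS 2 had the next lowest rate. The part of library quality in the spread between pools was not tested. The median SD of log2(FPKM + 1) between pools of a fibrillar chain was 0.133 in CAS and 0.775 in CAS-E2, beside 0.150 and 0.217 over all tested genes. Without CAS-E2 1 all 7 differences were negative, from -1.14 (Col27a1) to -0.21 (Col5a3), with -0.79 for Col1a1 (adjusted p = 0.11 from limma) and -0.91 for Col3a1 (adjusted p = 0.0845), and with all pools 5 of 7 were negative. Without CAS-E2 3 the differences ran from -0.95 (Col27a1) to 0.65 (Col5a3). They were -0.02 for Col1a1, -0.08 for Col3a1, -0.002 for Col5a2, 0.26 for Col1a2 and 0.53 for Col5a1. Col27a1, a minor fibrillar collagen, was the exception that was called with all pools. It stood at 1.63, 1.93 and 2.29 FPKM in CAS and at 0.667, 0.388 and 0.275 FPKM in CAS-E2. The groups did not overlap (difference -1.03, SE 0.24, adjusted p = 0.00658 from limma). Its FPKM reached 1 in every library without E2 and in SPI-E2 1, but in no CAS-E2 pool. Col27a1 thus also entered the test mainly through groups where it was high, and its level in CAS-E2 lay below the filter.

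Calls that lie close to the 2-fold cutoff depended on single libraries or on the scaling. Col27a1 was just under it without CAS 3 (-0.95) or without CAS-E2 3 (-0.95), and Col23a1 without CAS-E2 2 (-0.96). With median-ratio scaling they were at -0.97 and -0.96, which left 2 members called lower beside 3 called higher.

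**Figure D2:**
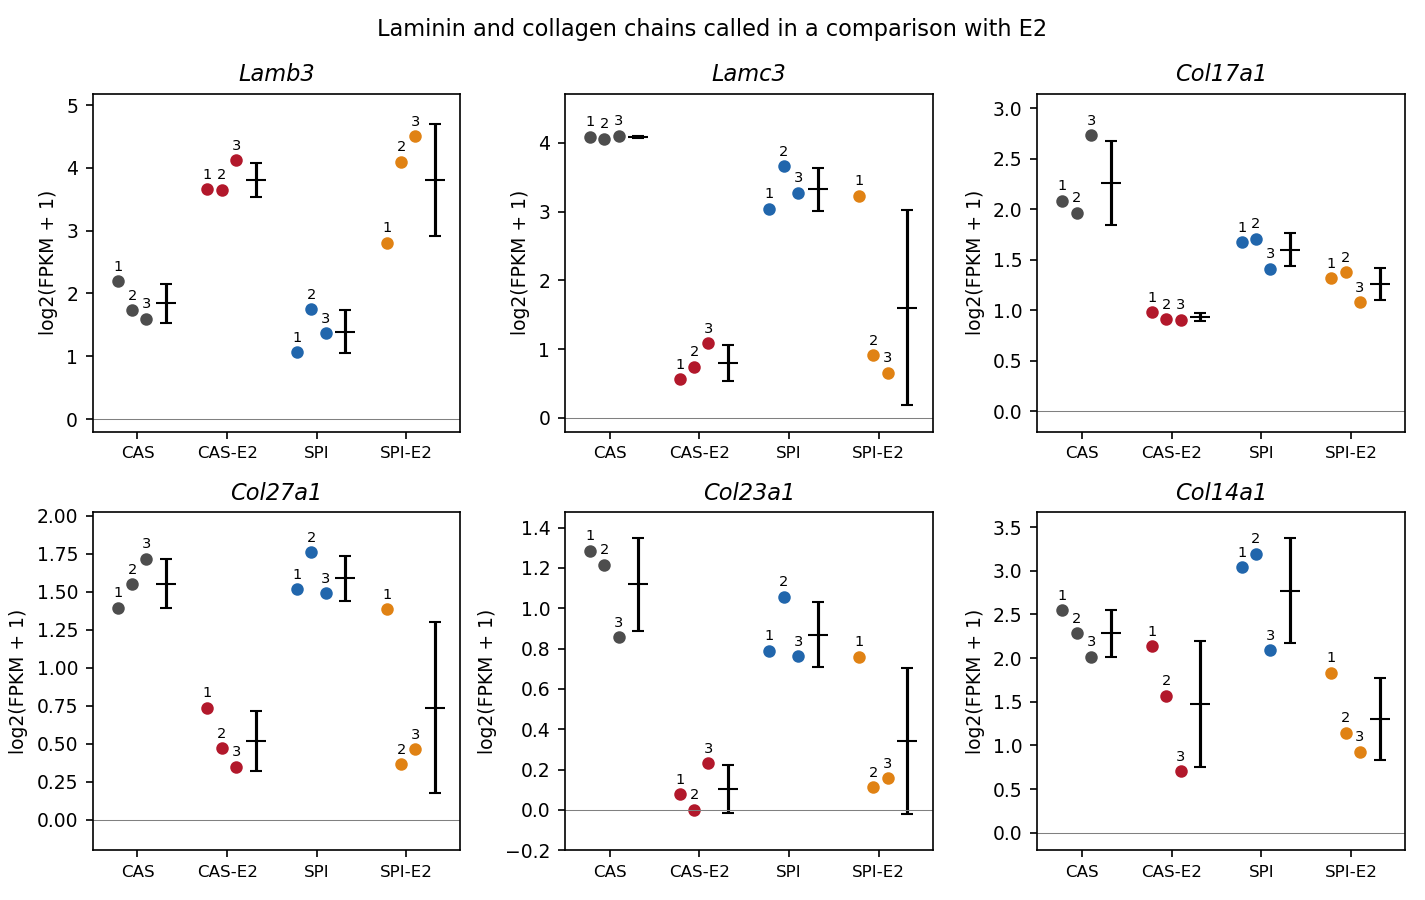
log2(FPKM + 1) (vertical axis) in the 4 groups (horizontal axis) for 6 chains called in at least 1 comparison with E2, with numbered points for the 3 pools and a bar for mean and SD. Lamb3 lies higher in both groups with E2, Lamc3 lies lower except in SPI-E2 1, and Col17a1 is lowest in CAS-E2.

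In soy-fed rats Lamb3 was again higher and Lamc3 lower with E2, and the collagens called lower were Col3a1 and Col14a1. Of 21 members, 2 were called higher and 3 lower in SPI-E2 than in SPI, where 10.2% of all tested genes were called, 8.39% higher and 1.86% lower. The 3 that were lower are 14.3% of the 21. By the adjusted p alone 3 were higher and 6 lower, where 27.6% of all tested genes passed. The groups did not overlap for 4 members that were higher and 7 that were lower in SPI-E2, beside 30.1% and 11.2% of all tested genes. The median log2 difference was -0.45 over the members and 0.11 over all tested genes. That shift of all genes was -0.00 with median-ratio scaling, under which the same numbers of members were called.

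Lamb3 stood at 1.09, 2.36 and 1.58 FPKM in SPI and at 5.99, 16.1 and 21.7 FPKM in SPI-E2. SPI-E2 1 was the lowest pool with E2 and was still above every SPI pool. The difference was 2.41 (SE 0.36, adjusted p = 0.00122 from limma).

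Lamc3 separated 1 pool from the rest. It stood at 7.24, 11.6 and 8.65 FPKM in SPI and at 8.38, 0.882 and 0.577 FPKM in SPI-E2. SPI-E2 1 lay among the SPI pools, and the other pools with E2 lay at the level of CAS-E2. The difference was -1.72 (SE 0.51, adjusted p = 0.0267 from limma) with overlapping groups, and -2.54 without SPI-E2 1 (adjusted p = 4.1e-06). It was not called without SPI 2 (-1.56), SPI 3 (-1.75), SPI-E2 2 (-1.38) or SPI-E2 3 (-1.25), nor in a fit of the SPI and SPI-E2 libraries alone (adjusted p = 0.10).

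The fibrillar chains all had lower means in SPI-E2, and 1 of 7 was called. Col3a1 stood at 194, 155 and 126 FPKM in SPI and at 115, 56.6 and 39.8 FPKM in SPI-E2. All SPI pools were above all SPI-E2 pools (difference -1.28, SE 0.41, adjusted p = 0.0388 from limma). Col1a1 stood at 207, 143 and 179 FPKM in SPI and at 174, 92.4 and 61.1 FPKM in SPI-E2, with overlap (difference -0.80, adjusted p = 0.15 from limma). Col1a2 stood at 137, 111 and 108 FPKM in SPI and at 113, 75.0 and 45.3 FPKM in SPI-E2. Col5a2, a chain that regulates fibril diameter, had a difference of -0.77 (adjusted p = 0.0094 from limma) and Col27a1 one of -0.85 (adjusted p = 0.0237), both under 2-fold. SPI-E2 1 was the highest SPI-E2 pool in 7 of 7 fibrillar chains and in 34.6% of all tested genes. The study's read summary also gave SPI-E2 1 the highest alignment rate of its group, and the part of library quality was not tested.

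Col14a1, a collagen that coats fibrils, stood at 7.22, 8.15 and 3.25 FPKM in SPI and at 2.56, 1.21 and 0.905 FPKM in SPI-E2. The groups did not overlap, although SPI 3 came near SPI-E2 1 (difference -1.47, SE 0.38, adjusted p = 0.0153 from limma). The 4 fat markers, none of them at 0, summed to 490, 361 and 80.4 FPKM in SPI and to 166, 282 and 305 FPKM in SPI-E2, so SPI 3 was the lowest SPI pool for them too. Lpl, the lipoprotein lipase of fat, was at 87.2, 86.8 and 19.1 FPKM in SPI and at 25.4, 5.85 and 10.5 FPKM in SPI-E2. Fabp4 was at 270, 182.5 and 43.2 FPKM in SPI and at 60.1, 15.9 and 64.3 FPKM in SPI-E2. Plin1 was at 18.1, 13.0 and 2.15 FPKM in SPI and at 3.09, 1.42 and 1.63 FPKM in SPI-E2. Adipoq, an adipocyte hormone, did not follow these, with 114, 79.1 and 16.01 FPKM in SPI and 77.6, 259 and 229 FPKM in SPI-E2. The part of fat in the Col14a1 difference was not tested. Col17a1, called in casein-fed rats, stood at 2.19, 2.27 and 1.66 FPKM in SPI and at 1.496, 1.59 and 1.11 FPKM in SPI-E2. Every SPI-E2 pool was below every SPI pool, but the difference was -0.34 (SE 0.19, adjusted p = 0.20 from limma). Col6a2 stood at 157, 146 and 184 FPKM in SPI and at 201, 322 and 188 FPKM in SPI-E2 (difference 0.50, adjusted p = 0.23 from limma). Col6a3 stood at 16.7, 19.5 and 18.8 FPKM in SPI and at 22.1, 25.1 and 19.3 FPKM in SPI-E2 (difference 0.26, adjusted p = 0.58 from limma). Col18a1 stood at 15.1, 14.04 and 18.8 FPKM in SPI and at 20.8, 18.1 and 10.5 FPKM in SPI-E2, with overlap.

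Among the other chains low in CAS-E2, Col23a1, Col27a1 and Col7a1 showed the same split among the SPI-E2 pools, and Col17a1 did not. Col23a1 stood at 0.729, 1.08 and 0.695 FPKM in SPI and at 0.694, 0.0813 and 0.115 FPKM in SPI-E2. Col27a1 stood at 1.86, 2.39 and 1.81 FPKM in SPI and at 1.61, 0.287 and 0.379 FPKM in SPI-E2. In both, as in Lamc3, SPI-E2 1 lay near the SPI pools and the other SPI-E2 pools lay at the level of CAS-E2. Col7a1 went the same way, at 1.22, 0.298 and 0.276 FPKM in SPI-E2 beside 1.19 to 2.03 FPKM in SPI (difference -0.70, adjusted p = 0.032 from limma).

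The common basement membrane chains had smaller differences. Lamc1 stood at 19.8, 19.2 and 15.01 FPKM in SPI and at 16.7, 11.98 and 10.5 FPKM in SPI-E2. Col4a1 stood at 33.3, 30.5 and 27.6 FPKM in SPI and at 25.0, 20.4 and 22.9 FPKM in SPI-E2, where every pool was below every SPI pool (difference -0.40, adjusted p = 0.19 from limma). Lama5 stood at 6.98, 5.69 and 6.78 FPKM in SPI and at 8.07, 11.8 and 10.8 FPKM in SPI-E2, higher in every pool (difference 0.57, adjusted p = 0.0336 from limma) but under 2-fold.

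The count of members called lower in SPI-E2 rested on few libraries. It was 6 without SPI-E2 1, when Col1a1 (-1.20, adjusted p = 0.0222 from limma), Col1a2 (-1.005, adjusted p = 0.0419) and Col27a1 (-1.18) joined the 3. It was 0 without SPI 2, SPI-E2 2 or SPI-E2 3, and 1 without SPI 3. Col3a1 was not called when any SPI library, SPI-E2 2 or SPI-E2 3 was left out, with differences of -1.43 to -0.95, nor without CAS 1, CAS 2, CAS 3 or CAS-E2 2, which enter through the shared spread only. Col14a1 was not called without SPI 2 (-1.26), SPI-E2 2 (-1.39) or SPI-E2 3 (-1.28). Without SPI 1, the library with high albumin, Col3a1 was at -1.12 (adjusted p = 0.11 from limma).

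**Figure D3:**
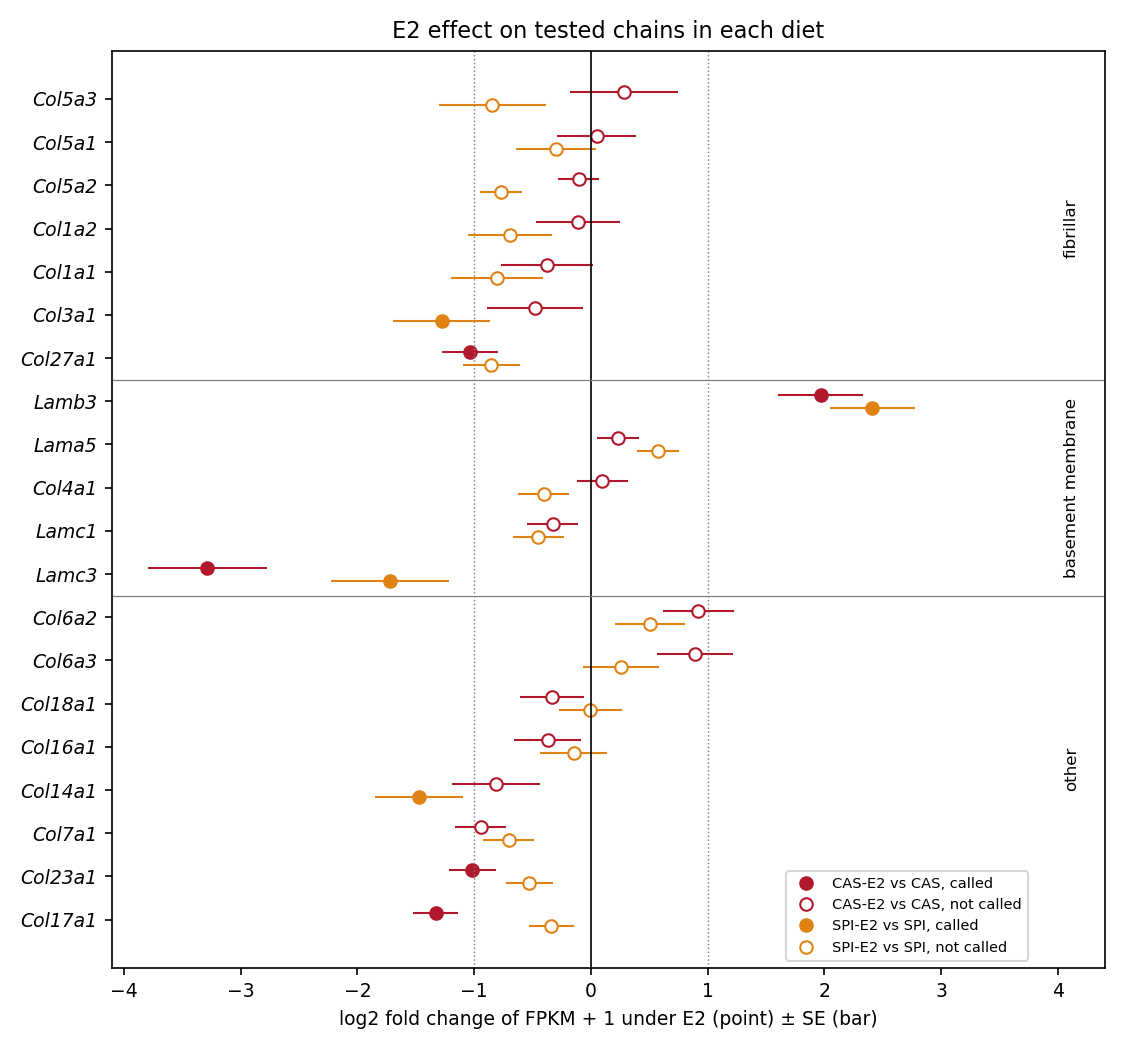
For tested chains (rows, by class), the log2 difference with E2 (horizontal axis) is given in casein-fed and soy-fed rats as a point with a bar of 1 SE, filled where called; dotted lines mark 2-fold. Lamb3 lies to the right on both diets, Lamc3 to the left on both, and all 7 fibrillar chains lie left of 0 with soy.

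The comparisons in the 2 diets share no library, although they share 1 estimate of the spread. The sign of the difference was the same in 18 of 21 members (85.7%), beside 76.0% of all tested genes. Of the 6 called with casein and the 5 called with soy, 3 were called in both, Lamb3 and Lamc3 among them. Over all genes, those called in both were 49.4% of the genes called with casein and 69.2% of those called with soy.

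Diet itself, and its effect on the response to E2, gave no call among the members. In SPI against CAS, 0 of 21 were called in either direction, beside 0.0195% of all tested genes, and 1 had an unadjusted p under 0.05 in limma. That member was Col17a1, at 3.94 ± 1.501 FPKM in CAS and 2.04 ± 0.331 FPKM in SPI (SD, n = 3 each), with a difference of -0.66 (95% interval -1.08 to -0.24, adjusted p = 0.30). Lamc3 was lower in all 3 SPI pools than in any CAS pool, with a difference of -0.76 (95% interval -1.86 to 0.34, adjusted p = 0.51 from limma). The groups did not overlap, with SPI lower, for 4 of 21 members (Lamc3, Lama5, Col17a1 and Col16a1), beside 30.8% of all tested genes, and for 0 members with SPI higher, beside 1.97%. The median of all genes was at -0.16 in this comparison and at -0.01 with median-ratio scaling. Against that median the fibrillar chains stood at 0.16, with 6 of 7 above 0, and none was called.

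In SPI-E2 against CAS-E2, 0 of 21 members were called, beside 0.00973% of all tested genes, and 2 (Col5a2 and Col6a3) had an unadjusted p under 0.05 in limma. Only Col17a1 had groups that did not overlap with SPI-E2 higher, beside 4.47% of all tested genes, and 0 members had SPI-E2 lower, beside 2.53%. Between same-numbered libraries, 4 of 7 fibrillar chains (Col1a1, Col1a2, Col3a1 and Col5a2) were lower in SPI-E2 in all 3 pairs, beside 10.5% of all tested genes. The pairing was taken from these same data and the fibrillar chains vary together, so no conclusion is drawn from this count. With the replicate block the differences of these 4 chains were -0.30, -0.43, -0.50 and -0.45, with adjusted p of 0.91, 0.84, 0.83 and 0.52 from limma. The interval of the difference was -0.80 to 0.78 for Lamb3 and -0.30 to 1.90 for Lamc3, so differences of up to these sizes cannot be told from 0 here. For the difference between diets in the effect of E2, 0 of 21 were called, beside 0.0% of all tested genes. Col17a1 (0.99, SE 0.27, adjusted p = 0.19 from limma) and Col5a2 (-0.67, adjusted p = 0.26) were the 2 with an unadjusted p under 0.05. The smaller fall of Lamc3 in soy-fed rats had an interaction of 1.56 (SE 0.71, adjusted p = 0.34 from limma), and that of all genes had a median of 0.21, or 0.01 with median-ratio scaling. The loss of the Col17a1 call with soy is therefore not shown to be a difference between the diets.

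The fibrillar and the other collagens differed in their summed FPKM. The fibrillar chains summed to 391 to 456 FPKM in CAS, 591, 325 and 201 FPKM in CAS-E2 1 to 3, 441 to 575 FPKM in SPI, and 429, 241 and 162 FPKM in SPI-E2 1 to 3. The other collagens, of which Col6a2 is the largest, summed to 242 to 257 FPKM in CAS and to 622, 494 and 249 FPKM in CAS-E2 1 to 3. With soy they summed to 199.9 to 238 FPKM in SPI and to 262, 374 and 224 FPKM in SPI-E2 1 to 3, with overlap. No test was made on these sums.

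**Figure D4:**
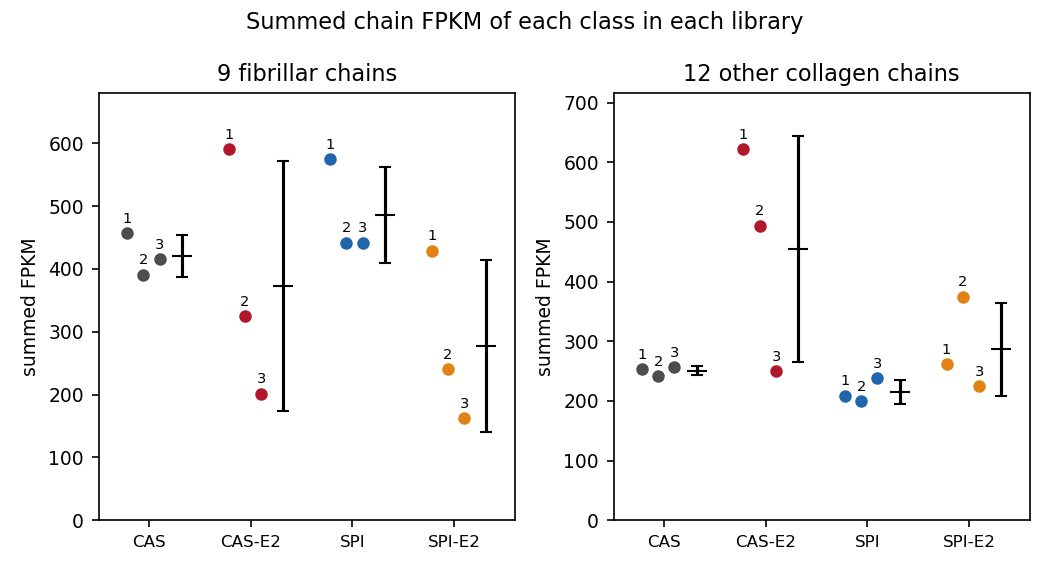
Summed FPKM (vertical axis) of fibrillar and other collagen chains in each of the 12 libraries, numbered points by group with a bar for the mean and SD. The fibrillar sum spreads from 201 to 591 FPKM in CAS-E2 and from 162 to 429 FPKM in SPI-E2.

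Markers of cell types also differed with E2, some in the direction of the chains and some not, and in whole uteri more cells of a type and more RNA per cell cannot be told apart. The 5 epithelial markers summed to 171 to 198 FPKM in CAS and 794, 986 and 1373 FPKM in CAS-E2 1 to 3, and to 115 to 144 FPKM in SPI and 467, 1639 and 1653 FPKM in SPI-E2 1 to 3. All 5 were called higher with E2 on both diets, and none was at 0 in any library. Per 100 FPKM of that sum, Lamb3 was at 1.07 to 1.81 in CAS and 1.17 to 1.46 in CAS-E2, and at 0.753 to 2.06 in SPI and 0.982 to 1.32 in SPI-E2, with overlap on both diets. Col17a1 was at 1.64 to 2.98 in CAS and 0.0636 to 0.123 in CAS-E2 on the same scale. With soy it was at 1.355 to 1.977 in SPI and 0.0673 to 0.320 in SPI-E2, so the groups overlapped on neither diet. The Lamb3 ratio depends on which markers are summed. Krt19 was at 44.95 to 54.7 FPKM in CAS and at 364.6 to 669.5 FPKM in CAS-E2. Epcam rose less, with 44.1 to 57.1 FPKM in CAS and 94.4 to 162 FPKM in CAS-E2. The ratios to the marker sum were chosen after the values were seen and were not tested.

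The 4 stromal fibroblast markers, none of them at 0, summed to 167 to 208 FPKM in CAS and 131, 90.4 and 69.7 FPKM in CAS-E2 1 to 3. They summed to 156 to 193 FPKM in SPI and 138, 68.0 and 63.0 FPKM in SPI-E2 1 to 3. Of the 4, 2 were called lower with casein and 3 with soy. Their order across the pools with E2 was that of the fibrillar sum on each diet. In CAS and in SPI their order differed from that of the fibrillar sum. Per 100 FPKM of stromal markers, the fibrillar chains stood at 192 to 250 FPKM in CAS and 289 to 451 FPKM in CAS-E2, and at 228 to 345 FPKM in SPI and 258 to 354 FPKM in SPI-E2. The part of tissue make-up in the fall of Col3a1 and in the spread of the fibrillar chains was not tested. The 3 endothelial markers summed to 52.5 to 62.5 FPKM in CAS and to 38.5, 35.7 and 27.4 FPKM in CAS-E2 1 to 3. They summed to 45.35 to 57.03 FPKM in SPI and to 37.6, 35.7 and 31.3 FPKM in SPI-E2 1 to 3. Across the pools with E2 they too had the order of the fibrillar sum, so that order was not particular to the stromal markers. Lamc3 stood at 25.1 to 30.8 per 100 FPKM of endothelial markers in CAS and 1.25 to 4.11 in CAS-E2. With soy it stood at 12.7 to 25.6 in SPI and at 22.3, 2.47 and 1.85 in SPI-E2 1 to 3, with overlap.

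Genes that fold, cut and bind these chains were described by 5 lists, and E2 called 14 of their 64 tested genes with casein (21.9%, beside 14.4% of all tested genes) and 9 with soy (14.1%, beside 10.2%). These lists were not tested as sets. Of 15 tested genes for folding and modification of collagen, 1 was lower and 0 higher with E2 in casein-fed rats, and 0 were called in soy-fed rats. The 1 was Leprel1, a collagen prolyl hydroxylase, at 5.18 ± 0.374 FPKM in CAS and 2.08 ± 0.568 FPKM in CAS-E2 (SD, n = 3 each; adjusted p = 0.00222 from limma). Of 10 genes for procollagen cleavage and crosslinking, 2 (20%) were higher and 0 lower on each diet, where 7.99% of all tested genes were higher with casein and 8.39% with soy. Tgm2, the crosslinking enzyme transglutaminase, was higher on both, with differences of 1.36 (SE 0.37, adjusted p = 0.0132 from limma) and 2.28 (SE 0.37, adjusted p = 0.00172). Loxl2, a lysyl oxidase, was called with casein (1.02) and Furin, a proprotein convertase, with soy (1.42).

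Of 19 fibril and elastic fiber partners, 1 was higher and 3 lower with casein, and 0 and 3 with soy. The 3 are 15.8% of the list, where 6.37% of all tested genes were lower with casein and 1.86% with soy. Postn, the matrix protein periostin, was lower on both diets, at 81.2 ± 13.8 FPKM in CAS and 32.1 ± 11.0 FPKM in CAS-E2 (difference -1.36), and at 69.7 ± 15.7 FPKM in SPI and 26.3 ± 16.3 FPKM in SPI-E2 (difference -1.51). With casein, Emilin1, an elastic fiber protein, was lower (difference -1.34) and Fn1, fibronectin, was higher (difference 1.01). Dcn and Lum, small proteoglycans that bind fibrils, were lower with soy, by 1.04 and 1.26 on the log2 scale (differences of -1.04 and -1.26). Of 8 basement membrane partners, 3 (37.5%) were lower with casein and 2 (25%) with soy, beside the same 6.37% and 1.86% of all tested genes, and 0 were higher. Nid2, a nidogen that links laminin to type IV collagen, was at 5.92 ± 0.820 FPKM in CAS and 1.46 ± 0.640 FPKM in CAS-E2 (difference -1.51), and its difference with soy was -1.29. Ntn1, a netrin, which shares domains with laminin short arms, had differences of -2.22 and -1.29. Frem2, a protein of epithelial basement membranes, was called lower with casein (difference -1.40).

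Of 12 collagen and laminin receptors, 2 were higher and 2 lower with casein, and 2 were higher and 0 lower with soy. That is 33.3% called with casein and 16.7% with soy, beside 14.4% and 10.2% of all tested genes. The 2 higher were Sdc1, the syndecan of epithelial cells, and Cd44, a matrix receptor, on both diets. Sdc1 stood at 6.92 ± 0.0810 FPKM in CAS and 28.8 ± 2.04 FPKM in CAS-E2 (SD, n = 3 each; difference 1.91, SE 0.29, adjusted p = 0.000779 from limma). Bcam, a receptor for the laminin α5 chain, was lower with casein, at 46.6 ± 1.90 FPKM in CAS and 19.9 ± 4.33 FPKM in CAS-E2 (SD, n = 3 each; difference -1.21), and so was Mrc2, a receptor that takes up collagen (-1.03). None of the genes of these 5 lists was called between the diets or in the interaction.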

How the data were processed

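RNA of 12 pools of rat uteri, 3 for each of 4 groups, was sequenced as 36-bp single reads. The authors filtered reads for quality, aligned them to rn4 (TopHat2 2.0.9, Bowtie2 2.1.0) and ran Cufflinks 2.1.1. CASAVA 1.7 is another tool in the submitters' processing notes. Deposited were FPKM, which the authors scaled to each library's mapped reads. Short single reads can be assigned poorly between similar genes, and no read counts were used here.

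FPKM were summed over the transcripts of each symbol (1 transcript for each of the 31 members). Groups were taken from the labels. After a filter at an FPKM of 1 in 3 libraries, 1 was added and log2 values were fitted in 1 linear model of the 4 groups with limma 3.58.1 (R 4.3.3, variance trend on), and p-values were adjusted by Benjamini-Hochberg over 10279 genes. The 5 comparisons were CAS-E2 with CAS, SPI-E2 with SPI, the 2 diets without E2 and with E2, and the interaction of E2 and diet, and SPI-E2 was not compared with CAS. The steps were tested on simulated data. Apart from 1 member not reported here but counted, values in every library are given for the 3 highest chains of each class and the called chains, and for each partner list up to 3 called genes with the smallest adjusted p. Other genes named were chosen after their values were seen. The members and lists were chosen with earlier results of these data known. Promoter windows came from RefSeq tables. Tables and plots used Python 3.11.15, pandas 2.3.3 and matplotlib 3.10.9. Same-numbered libraries of CAS-E2 and SPI-E2 deviated together from their group means (correlations of 0.269, 0.117 and 0.336), so the numbers pair these by the data alone, since no source says what they share. The other pairs of groups had correlations of -0.263 to 0.153 and were not paired, although 0.153 is above 0.117. Libraries with different numbers were not correlated as a comparison. A total of 22 alternative settings were tried, among them pseudocounts of 0.1 and 0.5, other filters and scaling, array weights, a replicate block and leaving out each library.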

Additional observations from a re-analysis of the deposited data

How the results depend on the processing

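No difference of a called member reversed in any of the 22 settings, but many of them could not change the difference. The other filters, the fit of 2 groups alone, the replicate block and leaving out a library of the other diet left it unchanged. Those settings bear on the p-value and not on the direction. Of 11 member calls, 6 were kept in every setting that tested them (among them Lamb3 on both diets, and Lamc3 and Col17a1 with casein) and 5 were lost in at least 1. Members called higher in CAS-E2 than in CAS went from 2 to 4 with array weights and to 4 with the adjusted p alone, and members called lower from 4 to 1 with a filter at an FPKM of 5, which tests fewer genes, and to 2 with median-ratio scaling. Members called lower in SPI-E2 than in SPI went from 3 to 5 with a pseudocount of 0.1, to 1 with the 2 groups fitted alone, to 5 with array weights and to 6 with the adjusted p alone. The cause was not tested. When each library was left out in turn, members called with casein were 2 to 4 higher (4 without CAS-E2 3) and 3 to 5 lower (5 without CAS-E2 1, where Col14a1 joined at -1.15). With soy they were 2 higher throughout and 0 to 6 lower (0 without SPI 2, SPI-E2 2 or SPI-E2 3, 1 without SPI 3, 6 without SPI-E2 1). The diet comparisons and the interaction gave 0 called members in every setting that could be fitted.

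The replicate block was fitted over all 12 libraries, including CAS and SPI, which were not paired. With it, 2 members were called higher and 4 lower with casein, and 2 higher and 3 lower with soy. Between the diets with E2, the one pair of groups that the numbers pair, 0 were called, so the block changed no count of member calls. FPKM without read counts leave the counting error of low chains such as Col23a1 unknown to the test, and pools of 2 uteri hide the spread between animals.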
